A study of Arabidopsis thaliana with 20 samples.

Results

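Autophagy delivers cytoplasm, protein aggregates and organelles to the vacuole inside double-membraned vesicles called autophagosomes. ATG8 is a small ubiquitin-like protein that is trimmed by the protease ATG4 and then joined to the lipid phosphatidylethanolamine on the growing membrane, where it recruits cargo receptors. Plants carry a family of ATG8 genes. ATG18A is a propeller protein that binds phosphatidylinositol 3-phosphate and acts early in autophagosome formation, and NBR1 is a selective receptor that binds both ubiquitinated cargo and ATG8. In Arabidopsis, ATG18A is known as a partner of the transcription factor WRKY33 and both are needed for resistance to a necrotrophic fungus.

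The results concern 10 Arabidopsis thaliana genes, namely the 8 ATG8 family members ATG8A (AT4G21980), ATG8B (AT4G04620), ATG8C (AT1G62040), ATG8D (AT2G05630), ATG8E (AT2G45170), ATG8F (AT4G16520), ATG8H (AT3G06420) and ATG8I (AT3G15580), together with ATG18A (AT3G62770) and NBR1 (AT4G24690). They were taken by locus identifier from the 33602 genes in each count table, and all 10 passed the filter on low counts that left 19954 genes for testing. The study asked how reactive oxygen species in the apoplast, the space outside the plasma membrane, change the transcriptome, and what the transcription factors WRKY25, WRKY33 and WRKY75 contribute. Whole rosettes of 3-week-old plants received 350 ppb of ozone, a gas that forms reactive oxygen species in the apoplast, for 2 h or were left without ozone. The plants were wild type Col-0 (4 libraries without and 4 with ozone), the double mutant wrky25 wrky33 (3 and 3) and the mutant wrky75 (3 and 3), and each library came from a pool of 5 rosettes. The labels name no mutant alleles, so whether each mutant is 1 line or several is not given in the sources used here.

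The 20 libraries held between 20486137 and 20771667 counted reads. Transcript from the mutated genes was still counted in the mutants: WRKY25 stood between 3.14 and 5.55 counts per 1000000 reads with TMM scaling (CPM) in wrky25 wrky33 without ozone against 8.38 to 16.1 in Col-0, and between 176 and 223 under ozone against 104 to 144. WRKY33 under ozone ranged from 224 to 426 CPM in wrky25 wrky33 and from 320.5 to 729.9 in Col-0, and WRKY75 from 28.0 to 72.8 CPM in wrky75 and from 48.0 to 129 in Col-0. Gene-wide counts cannot show whether such transcripts are interrupted, so these values do not check the mutant labels. WRKY75, which is not among the genes that name wrky25 wrky33, ranged there from 18.8 to 25.4 CPM under ozone. Its log2 difference from Col-0 was -1.96 (edgeR quasi-likelihood test, adjusted p = 0.00225). All 5 leaf markers were abundant, and all had lower group means under ozone in each genotype. RBCS1A, the small subunit of Rubisco, averaged 18050 CPM without and 10320 CPM with ozone in Col-0, 19524 and 10037 in wrky25 wrky33 and 18616 and 10219 in wrky75, and RCA, the Rubisco activase, 13674 and 5359 CPM in Col-0. Of the markers of other organs, the seed genes CRA1 and OLEO1, the flower genes AP3 and PI and the root gene COBL9 had group means of at most 0.0973, 0.0362, 0.0495, 0.247 and 0.0367 CPM. The flower gene AG averaged between 1.57 and 2.16 CPM without and between 0.355 and 0.997 CPM with ozone, and the root gene PYK10 between 44.4 and 51.7 CPM and between 33.1 and 35.4 CPM, with 79.8 CPM in 1 Col-0 control library. The part of these shifts in the values below was not tested. In bulk rosettes, fewer cells of a type and less RNA per cell cannot be told apart. The ozone library of replicate 1 was the lowest of its group for 8 of the 10 genes in Col-0 and for all 10 in each mutant, so the results are also given without replicate 1 where a call depended on it.

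The coding ends of the 8 ATG8 genes are shown because they set apart the members that need ATG4 to expose their terminal glycine from those that do not. Each sequence is the last 60 coding bases in the RefSeq annotation of TAIR10.1, stop codon included, 5′ to 3′ on the coding strand, and the capitals mark the glycine codon that follows a threonine and a phenylalanine codon, the glycine to which the lipid is joined.
ATG8A: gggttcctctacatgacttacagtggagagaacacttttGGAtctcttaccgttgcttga
ATG8B: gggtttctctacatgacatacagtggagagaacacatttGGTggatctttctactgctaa
ATG8C: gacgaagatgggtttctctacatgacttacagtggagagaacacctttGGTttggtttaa
ATG8D: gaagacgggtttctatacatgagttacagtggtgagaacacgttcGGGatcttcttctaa
ATG8E: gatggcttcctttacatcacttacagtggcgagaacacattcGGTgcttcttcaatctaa
ATG8F: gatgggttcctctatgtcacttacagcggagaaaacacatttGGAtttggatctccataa
ATG8H: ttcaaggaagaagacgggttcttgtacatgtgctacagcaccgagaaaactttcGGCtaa
ATG8I: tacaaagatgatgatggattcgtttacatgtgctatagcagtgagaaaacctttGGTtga

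In ATG8H and ATG8I no codon lay between this glycine and the stop codon. ATG8C carried 2 further codons, ATG8D 3, ATG8E and ATG8F 4 each, and ATG8A and ATG8B 5 each. These ends lie at chr4:11656750-11656809 (plus strand, ATG8A), chr4:2328663-2328722 (minus, ATG8B), chr1:22934194-22934253 (plus, ATG8C), chr2:2083211-2083270 (minus, ATG8D), chr2:18625467-18625526 (plus, ATG8E), chr4:9306882-9306941 (minus, ATG8F), chr3:1955219-1955278 (minus, ATG8H) and chr3:5274075-5274134 (minus, ATG8I).

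Reads from near-identical stretches could be counted for the wrong member, so the family was compared by sequence. Identity of the longest coding sequences, over aligned positions with gaps counted, ran from 46.3% (ATG8D with ATG8I) to 77.5% (ATG8B with ATG8C). ATG8A and ATG8B shared the longest identical run of transcript, 53 bases, and ATG8A and ATG8C the next, 29 bases. The read length is not given in the sources used here, so the counts of ATG8A and ATG8B may share some reads. The 3′ end of ATG8A also overlaps the gene AT4G21990 on the opposite strand by 27 bases, and in RefSeq ATG8I and NBR1 overlap opposite-strand genes by 183 and 101 bases. The library kit does not keep the strand, so reads from a stretch shared by counted genes cannot be assigned to either. The deposited span of ATG8I starts at 5273895 on chromosome 3, where RefSeq has 5273526. That of NBR1 ends at 12744533 on chromosome 4, where RefSeq has 12744670. Whether the ATG8I and NBR1 overlaps fall inside the counted spans was not tested.

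The promoters of ATG18A, ATG8H, ATG8E and NBR1 are shown because the mutants are in genes for WRKY factors, which bind W-boxes, and these 4 genes differ in how many W-boxes they carry. Each is the window from 250 bases before to 50 after the RefSeq start in TAIR10.1, and capitals mark the W-box forms TTGACC and TTGACT on either strand (on the opposite strand they read GGTCAA and AGTCAA). The windows are chr3:23221194-23221493 (minus strand, ATG18A), chr3:1956348-1956647 (minus, ATG8H), chr2:18624014-18624313 (plus, ATG8E) and chr4:12740782-12741081 (plus, NBR1).
ATG18A: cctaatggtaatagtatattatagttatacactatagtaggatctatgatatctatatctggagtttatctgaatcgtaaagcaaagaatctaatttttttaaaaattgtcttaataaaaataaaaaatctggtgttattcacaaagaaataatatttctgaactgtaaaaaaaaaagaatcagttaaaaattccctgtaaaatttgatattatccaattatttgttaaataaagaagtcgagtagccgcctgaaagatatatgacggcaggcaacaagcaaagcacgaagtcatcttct
ATG8H: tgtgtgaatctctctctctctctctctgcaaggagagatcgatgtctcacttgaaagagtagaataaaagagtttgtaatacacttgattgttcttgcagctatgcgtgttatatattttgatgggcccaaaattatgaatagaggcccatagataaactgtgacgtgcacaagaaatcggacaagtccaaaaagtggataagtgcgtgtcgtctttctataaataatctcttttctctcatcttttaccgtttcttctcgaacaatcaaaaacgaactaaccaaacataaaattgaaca
ATG8E: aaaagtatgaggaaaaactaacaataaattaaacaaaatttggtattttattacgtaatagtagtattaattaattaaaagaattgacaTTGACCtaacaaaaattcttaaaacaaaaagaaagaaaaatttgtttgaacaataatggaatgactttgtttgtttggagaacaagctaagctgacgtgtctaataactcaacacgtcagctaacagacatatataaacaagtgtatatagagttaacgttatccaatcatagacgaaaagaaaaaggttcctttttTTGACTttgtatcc
NBR1: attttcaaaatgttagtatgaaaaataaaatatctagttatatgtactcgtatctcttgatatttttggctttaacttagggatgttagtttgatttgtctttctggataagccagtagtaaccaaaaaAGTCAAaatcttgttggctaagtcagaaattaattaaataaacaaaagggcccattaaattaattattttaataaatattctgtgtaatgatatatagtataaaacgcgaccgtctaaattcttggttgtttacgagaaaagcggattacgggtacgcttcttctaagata

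At least 1 W-box was present in 4 of the 10 windows, those of ATG8C, ATG8E, ATG8I and NBR1. Of the 27444 promoters of nuclear protein-coding genes cut in the same way, 32.4% held one. ATG8E held 2 W-boxes, with first bases at -161 and 37 from the start, and the NBR1 box began at -121. The ATG18A and ATG8H windows held none. The G-box CACGTG was in none of the 10 windows and in 7.7% of all promoters, and TGACG, which can share at most an end base with a W-box, was in 6 windows and in 23.1% of all. A match describes the letters in the window and is not a measured binding site. The windows rest on RefSeq starts, which differ from the deposited ones for some genes. For ATG8B, on the minus strand of chromosome 4, the start is 2330590 in RefSeq and 2330200 in the deposited span. Windows from the deposited starts were not tested.

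Without ozone, the order of the 10 genes was set by length-corrected level, in TMM-scaled CPM per kb of exon. The exon lengths are from RefSeq, which reaches past the deposited gene spans unevenly, among others for ATG8I, ATG8F and ATG8B. The order is therefore approximate. In Col-0, NBR1 stood highest at 53.3 ± 4.45 CPM per kb (mean ± SD, n = 4), followed by ATG8F at 46.7 ± 10.6 and ATG8A at 32.7 ± 7.12. The libraries of NBR1 and ATG8F overlapped, as did those of ATG8F and ATG8A. The exon union of ATG8F is 1864 bases and its longest transcript 1259 bases, whereas both are 2742 bases for NBR1. The order of NBR1 and ATG8F and their overlap therefore depend on the length used. A middle group held ATG8I (23.1 ± 4.59), ATG8E (20.5 ± 2.44) and ATG8C (20.3 ± 3.0), whose ranges overlapped one another. Below them, with no overlap, came ATG8H (10.4 ± 1.40) and ATG18A (10.3 ± 0.663), and lowest were ATG8D (7.47 ± 1.18) and ATG8B (6.99 ± 1.26). ATG8F was therefore the ATG8 with the highest mean in unstressed rosettes, and it was the same in wrky25 wrky33 (42.9 ± 3.11, n = 3) and in wrky75 (46.1 ± 1.71, n = 3).

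**Figure D1:**
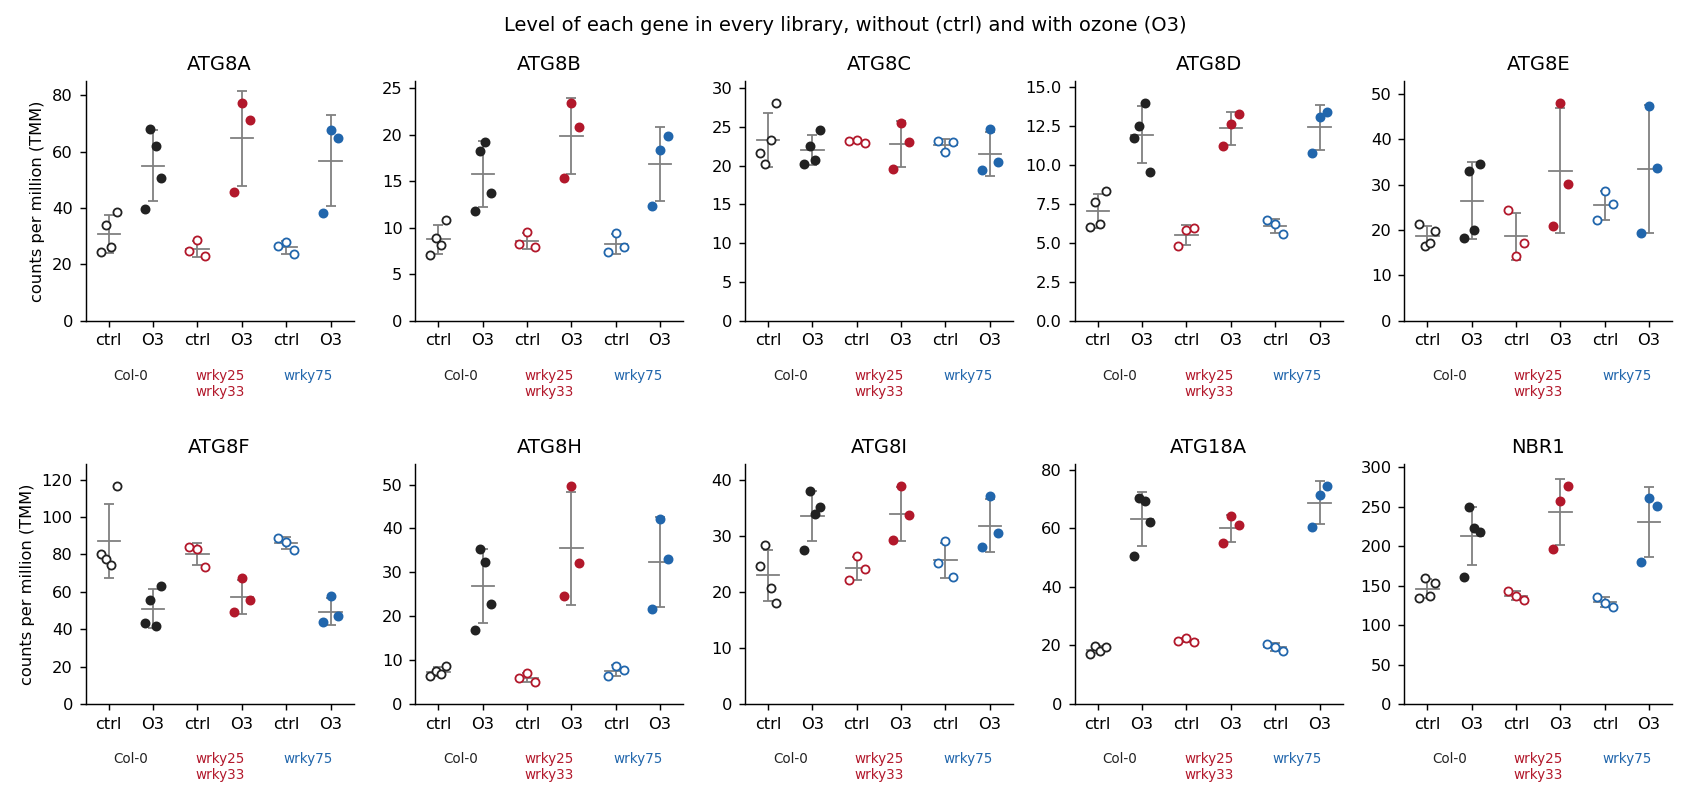
TMM-scaled counts per 1000000 reads of the 10 genes (1 panel each) in every library, with open points for libraries without ozone and filled points for ozone, and grey bars for the mean and SD of each group. ATG18A and ATG8H rose in all 3 genotypes with no overlap, ATG8F fell with no overlap, and ATG8C overlapped throughout.

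Ozone raised 7 of the 10 genes in Col-0, lowered 1 and left 2 without a call. ATG8H and ATG18A rose most, 3.63-fold and 3.39-fold, ATG8A, ATG8B, ATG8D, ATG8I and NBR1 rose between 1.46-fold and 1.80-fold, ATG8F fell, and ATG8C and ATG8E did not pass the test. A call here is an adjusted p under 0.05 (edgeR quasi-likelihood test, Benjamini-Hochberg over all 19954 genes). Much of the transcriptome moved: 69.7% of all genes were called, 33.3% higher and 36.4% lower, so 8 called of 10 is near the background, and 7 called higher of 10 stands beside 33.3% of all genes. The median log2 change was 0.66 over the 10 genes and -0.08 over all genes tested. With upper-quartile scaling the split over all genes shifted from 6635 higher and 7272 lower to 5436 higher and 9176 lower, with a median of -0.281, and with DESeq2 size factors to 7055 higher and 6644 lower, with a median of -0.01. The same 7 genes stayed called higher under both scalings.

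ATG18A, the phosphoinositide-binding propeller protein, measured 17.2, 19.7, 17.96 and 19.4 CPM in the 4 Col-0 libraries without ozone and 50.4, 70.5, 69.3 and 62.1 CPM with ozone. The ozone libraries all lay far above the others, with replicate 1 the lowest of them. The log2 fold change was 1.76 ± 0.10 (SE, adjusted p = 8.42e-11). In wrky25 wrky33 ATG18A went from 21.4, 22.6 and 21.3 CPM to 55.0, 64.1 and 61.1, a log2 change of 1.46 ± 0.12 (adjusted p = 1.01e-08). In wrky75 it went from 20.6, 19.4 and 17.95 CPM to 60.5, 71.4 and 74.4, a log2 change of 1.83 ± 0.12 (adjusted p = 5.15e-10). The groups were apart in every genotype.

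ATG8H, one of the 2 members whose coding sequence ends on the glycine, measured 6.42, 7.59, 6.85 and 8.69 CPM in Col-0 without ozone and 16.9, 35.3, 32.4 and 22.8 CPM with ozone. The ozone libraries were all higher but spread over a wide range, replicate 1 lowest and replicate 2 highest. Its log2 change of 1.86 ± 0.26 (adjusted p = 4e-06) was the largest of the 10. The change was 2.57 ± 0.30 in wrky25 wrky33 (adjusted p = 9.48e-07), from 5.91, 7.05 and 4.96 CPM to 24.6, 49.7 and 32.2, and 2.09 ± 0.30 in wrky75 (adjusted p = 6.58e-06), from 6.28, 8.76 and 7.69 CPM to 21.6, 42.1 and 33.1. In both mutants replicate 2 was again the highest ozone library.

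ATG8I, the other member that ends on the glycine, changed less. Its Col-0 libraries held 24.7, 28.4, 20.7 and 18.03 CPM without ozone and 27.5, 38.0, 33.9 and 35.1 CPM with ozone, so 1 ozone library fell within the range of the others. The log2 change was 0.55 ± 0.14 in Col-0 (adjusted p = 0.0023), 0.49 ± 0.16 in wrky25 wrky33 (adjusted p = 0.015) and 0.31 ± 0.16 in wrky75, which did not pass (adjusted p = 0.1). The wrky25 wrky33 call was lost without its control replicate 1 (adjusted p = 0.0598), without its ozone replicate 2 (0.0804) and with upper-quartile scaling (0.0932).

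ATG8A and ATG8B, members with 5 codons after the glycine, rose together. ATG8A measured 24.3, 34.1, 26.3 and 38.7 CPM without and 39.6, 68.0, 62.1 and 50.5 CPM with ozone in Col-0, narrowly apart (log2 change 0.83 ± 0.21, adjusted p = 0.00171). ATG8B went from 7.12, 8.88, 8.17 and 10.9 CPM to 11.8, 18.3, 19.2 and 13.8 (0.85 ± 0.18, adjusted p = 0.00052), also with no overlap. Both were called higher in wrky25 wrky33, by 1.35 ± 0.24 (adjusted p = 0.000106) and 1.21 ± 0.21 (adjusted p = 8.1e-05), and in wrky75, by 1.13 ± 0.24 (adjusted p = 0.000491) and 1.03 ± 0.21 (adjusted p = 0.000351).

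ATG8D rose in all 3 genotypes with separate libraries. It held 6.02, 7.59, 6.21 and 8.33 CPM without and 11.7, 12.5, 13.99 and 9.56 CPM with ozone in Col-0, a log2 change of 0.76 ± 0.13 (adjusted p = 5.09e-05). The change was 1.16 ± 0.15 in wrky25 wrky33 (adjusted p = 3.67e-06) and 1.03 ± 0.15 in wrky75 (adjusted p = 1.16e-05). ATG8D was unlike ATG8A, ATG8B and ATG8H in its ozone libraries of Col-0, where replicate 4 rather than replicate 1 was lowest.

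ATG8F, the ATG8 with the highest mean without ozone, was the only one of the 10 called lower. Its Col-0 libraries held 79.9, 77.6, 74.2 and 117 CPM without ozone and 43.5, 55.8, 41.5 and 63.2 CPM with ozone, so that every ozone library was below every control. The log2 change was -0.77 ± 0.16 in Col-0 (adjusted p = 0.000267) and -0.80 ± 0.18 in wrky75 (adjusted p = 0.000782), where 88.8, 86.4 and 82.5 CPM became 43.6, 57.7 and 46.9. In wrky25 wrky33, 83.7, 83.0 and 73.3 CPM became 49.0, 67.1 and 55.8, a smaller estimate of -0.48 ± 0.18 (adjusted p = 0.026). This last call was lost with DESeq2 size factors (adjusted p = 0.0651), in DESeq2 itself (0.066), without replicate 1 of every group (0.215), and without control replicate 1 (0.0692), control replicate 2 (0.0648), ozone replicate 1 (0.109) or ozone replicate 3 (0.0687), although the libraries of its groups did not overlap.

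ATG8C had the smallest estimates of the 10 genes. It ranged from 20.2 to 28.1 CPM without and from 20.2 to 24.5 CPM with ozone in Col-0, and its log2 estimates of -0.08 ± 0.11, -0.02 ± 0.13 and -0.07 ± 0.13 in Col-0, wrky25 wrky33 and wrky75 did not pass (adjusted p = 0.511, 0.888 and 0.618). The 95% interval in Col-0 ran from -0.31 to 0.15. With upper-quartile scaling ATG8C was called lower in Col-0 (-0.29, adjusted p = 0.0164), a shift of about the size by which that scaling moved the median of all genes.

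ATG8E had the largest standard error of the 10 in Col-0. Its Col-0 ozone libraries held 18.2, 33.0, 20.02 and 34.6 CPM, of which only replicates 2 and 4 stood above the 4 controls at 21.3, 16.6, 17.2 and 19.9 CPM. The log2 change was 0.50 ± 0.28 (adjusted p = 0.124). Without replicate 1 of every group, an alternative chosen after seeing the data, it was 0.70 and passed (adjusted p = 0.0144). In wrky25 wrky33 the change of 0.83 ± 0.32 passed (adjusted p = 0.0331), but ozone replicate 1 (20.9 CPM) lay below control replicate 1 (24.4 CPM), and the call was lost without control replicate 2 (adjusted p = 0.121), control replicate 3 (0.09) or ozone replicate 2 (0.245) and with upper-quartile scaling (0.0763). In wrky75 the change of 0.39 ± 0.32 did not pass (adjusted p = 0.29).

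NBR1, the cargo receptor, was the most abundant of the 10 in CPM. It measured 135, 159, 137 and 154 CPM without ozone and 161, 249, 224 and 217 CPM with ozone in Col-0, where the lowest ozone library barely cleared the highest control. The log2 change was 0.54 ± 0.14 in Col-0 (adjusted p = 0.00221). In wrky25 wrky33 NBR1 went from 143, 137 and 132 CPM to 197, 257 and 276 (0.83 ± 0.16, adjusted p = 0.000235), and in wrky75 from 136, 128 and 123 CPM to 180.3, 261 and 252 (0.84 ± 0.16, adjusted p = 0.000182). Both mutants showed clear separation.

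In wrky25 wrky33 ozone thus raised 8 of the 10 genes and lowered 1, against 31.1% and 33.9% of all genes (65% called in either direction). The all-gene split there, 6207 higher and 6773 lower, became 5145 and 8528 with upper-quartile scaling and 6657 and 6072 with DESeq2 size factors. In wrky75 it raised 6 and lowered 1, against 32% and 36.1% (68.1% called), and the split of 6390 higher and 7204 lower became 5403 and 8802 with upper-quartile scaling and 6969 and 6349 with DESeq2 size factors. The median log2 change of the 10 was 1.00 in wrky25 wrky33 and 0.93 in wrky75, and that of all genes was -0.09 and -0.11. Counted by libraries that did not overlap, 6 genes were higher and 1 lower in Col-0 (29.3% and 30% of all genes), 7 and 1 in wrky25 wrky33 (33.9% and 38.2%) and 6 and 1 in wrky75 (33.4% and 38.8%).

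**Figure D2:**
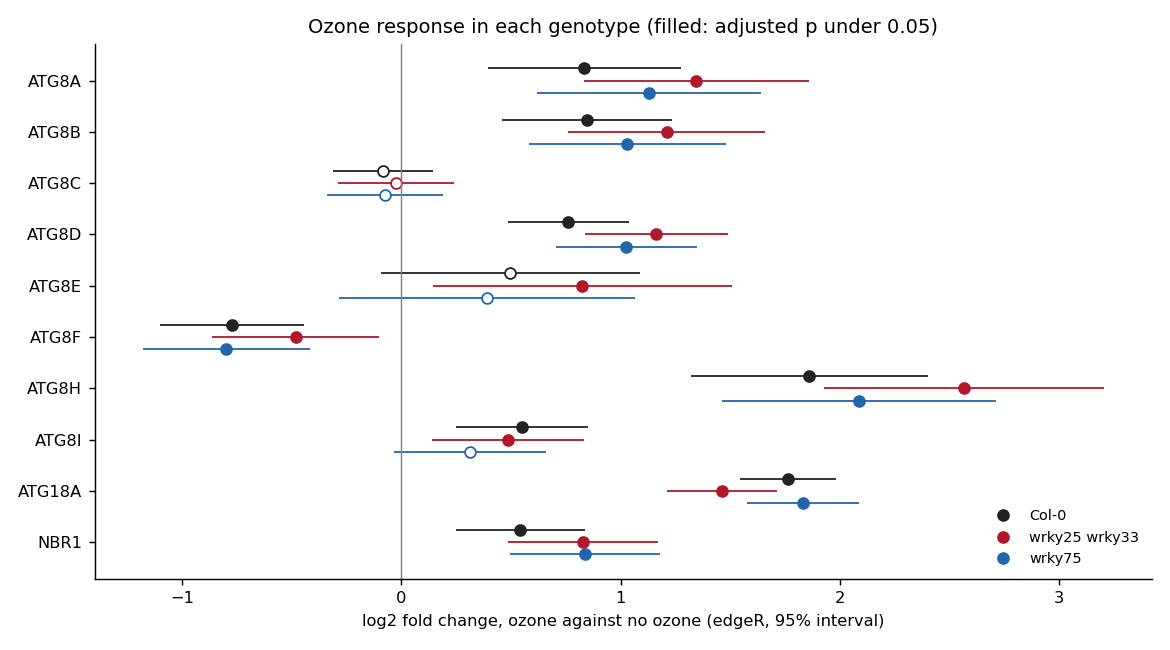
Log2 fold change of each gene under ozone in Col-0, wrky25 wrky33 and wrky75, with 95% intervals from edgeR, where filled points passed an adjusted p of 0.05. ATG8H and ATG18A lie farthest to the right in all 3 genotypes, and ATG8F is the only gene whose intervals lie wholly below 0.

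The ATG8 transcript pool differed in make-up between libraries with and without ozone. The pool is the sum of the 8 members in CPM per kb of exon. It leaves out the ninth family gene, ATG8G (4.96 CPM without and 4.82 CPM with ozone in Col-0), and it is described without a test. Its levels and shares rest on the RefSeq exon lengths, which reach past the deposited spans for some members. Its mean was 168 ± 20.97 without and 231 ± 40.3 CPM per kb with ozone in Col-0 with overlapping libraries (150.4 to 198 and 176 to 273), 156 ± 8.22 and 268 ± 65.6 in wrky25 wrky33 with no overlap, and 171 ± 9.73 and 246 ± 60.2 in wrky75, where the lowest ozone library (181.5) stood just under the highest control (181.8). ATG8F supplied 27.6 ± 2.91% of the pool in Col-0 without ozone and 12.0 ± 2.28% with ozone. ATG8H supplied 6.17 ± 0.29% and 16.1 ± 2.97%, and ATG8A 19.3 ± 2.29% and 25.1 ± 2.26%. The share of the 2 members that end on the glycine, ATG8H and ATG8I, was 20.2 ± 3.45% without and 30.9 ± 2.32% with ozone in Col-0, 21.04 ± 1.80% and 31.2 ± 1.61% in wrky25 wrky33 and 21.3 ± 1.34% and 31.5 ± 1.12% in wrky75, in each genotype without overlap between libraries.

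By length-corrected level, ATG8A (58.3 ± 13.4 CPM per kb) was the leading ATG8 in Col-0 under ozone, ahead of ATG8H (37.8 ± 12.0), ATG8I (33.9 ± 4.46), ATG8E (28.9 ± 9.29) and ATG8F (27.4 ± 5.54). The libraries of ATG8A and ATG8H overlapped, as did those of the 4 members from ATG8H to ATG8F. The place of ATG8F in this order depends on the length used, as it did without ozone. ATG8C (19.2 ± 1.71), ATG8D (12.7 ± 1.96) and ATG8B (12.6 ± 2.82) came last. ATG8D and ATG8B thus remained minor parts of the pool at 5.62 ± 1.26% and 5.45 ± 0.73% although both were called higher.

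**Figure D3:**
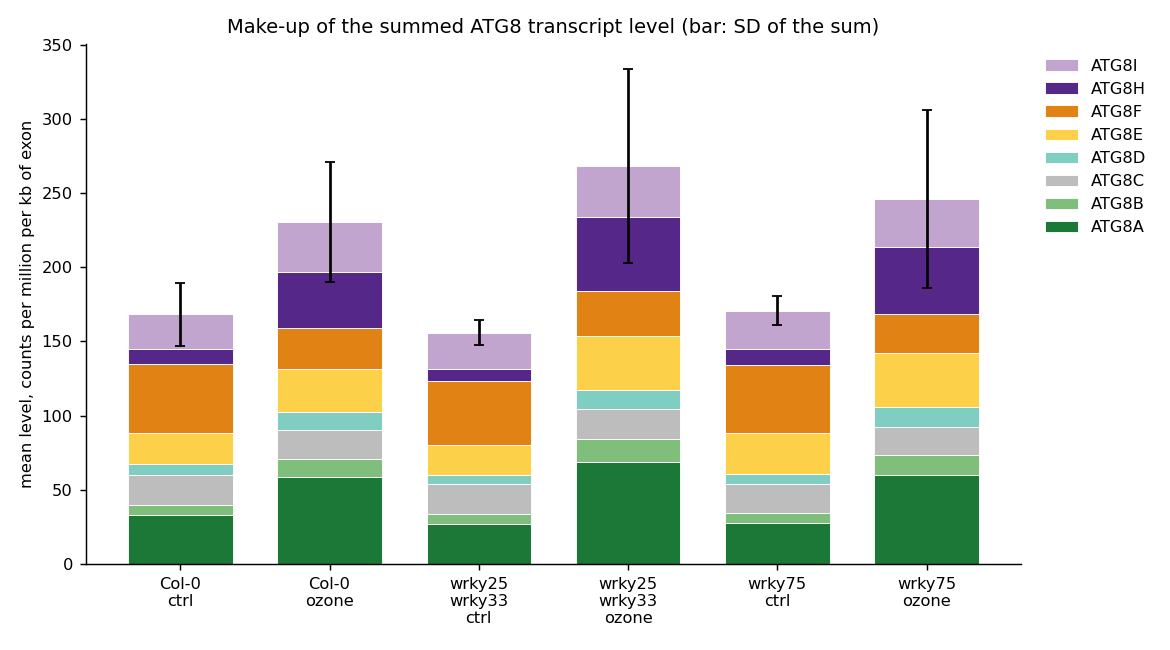
Mean length-corrected level of the 8 ATG8 members stacked for each of the 6 groups, in CPM per kb of exon, with bars for the SD of the sum over the 4 Col-0 or 3 mutant libraries. The ATG8F segment is smaller and the ATG8A and ATG8H segments are larger under ozone in each genotype.

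The mutants were compared with Col-0 to ask whether the WRKY factors bear on these levels. No member was called in either mutant, without or under ozone (edgeR quasi-likelihood test). Of all genes, 0.0251% were called between wrky25 wrky33 and Col-0 without ozone and 5.33% under ozone (1.56% higher and 3.77% lower in the mutant). Between wrky75 and Col-0, 0.0251% were called in either condition, 0.00501% as lower in wrky75 under ozone. At an unadjusted p under 0.05 there was 1 member in 1 of these 4 comparisons, ATG8D in wrky25 wrky33 without ozone, and DESeq2 called 0 members in each. Both mutants were compared with the same Col-0 libraries, so the comparisons are not independent.

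ATG8D without ozone held 4.77, 5.80 and 5.98 CPM in wrky25 wrky33, the highest of them just below the lowest Col-0 library at 6.02 CPM. The log2 difference was -0.35, with a 95% interval from -0.66 to -0.04 (adjusted p = 1). ATG18A without ozone was above Col-0 in each wrky25 wrky33 library, by 0.23 with an interval from -0.01 to 0.46, and ATG8E was above Col-0 in each wrky75 library, by 0.45 with an interval from -0.19 to 1.08. Libraries stood wholly above Col-0 for 2.09% of all genes in wrky25 wrky33 and for 2.63% in wrky75, and wholly below for 2.32% and 2.15%. Under ozone no member had separate libraries in either mutant, against 5.86% of all genes wholly above and 7.34% wholly below in wrky25 wrky33 and 0.762% and 1.55% in wrky75.

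Same-numbered libraries of Col-0 and of either mutant deviated together under ozone, so the levels were also compared within the 3 pairs, a comparison chosen after seeing the data. In wrky25 wrky33, 5 members were higher than in Col-0 in every pair, ATG8A, ATG8B, ATG8E, ATG8F and NBR1, and none was lower in every pair, where 26.1% of all genes were higher and 23.3% lower in every pair. NBR1 held 197, 257 and 276 CPM in the wrky25 wrky33 libraries against 161, 249 and 224 CPM in the Col-0 libraries of the same numbers. With the replicate number as a block in the edgeR fit, ATG8F came nearest to a call, higher in wrky25 wrky33 by 0.31 ± 0.10 (adjusted p = 0.0562), followed by ATG8B at 0.36 ± 0.14 (adjusted p = 0.113) and ATG8H at 0.39 ± 0.16 (adjusted p = 0.153). These 3 had an unadjusted p under 0.05 and none passed, whereas the block called 5.43% of all genes higher and 6.57% lower. In wrky75, 6 members were higher in every pair and none lower, against 14.3% and 14.4% of all genes, and no member reached an unadjusted p under 0.05 with the block (lowest adjusted p = 1), which called 0.0401% of all genes higher and 0.01% lower. The numbers also paired Col-0 and wrky25 wrky33 without ozone, where ATG18A was higher in every pair and ATG8D and ATG8H were lower, against 17.5% and 16.4% of all genes, and where the lowest adjusted p with the block was 0.794.

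The intervals below are from the fit without the block, which leaves out the pairing of same-numbered libraries. For ATG8H in wrky25 wrky33 under ozone, the SE was 0.258 in this fit and 0.165 with the block. Under ozone, the ATG18A difference from Col-0 was -0.07 (95% interval -0.30 to 0.16) in wrky25 wrky33 and 0.12 (-0.10 to 0.35) in wrky75. For ATG8H it was 0.40 in wrky25 wrky33, with the much wider interval from -0.14 to 0.94. Under ozone 9 of the 10 estimates in wrky25 wrky33 were above 0, from 0.01 to 0.40 apart from ATG18A, with a median of 0.18, and none passed. Of all 19954 genes tested, 9898 had an estimate above 0, with a median of -0.0016. Many of the members deviated together between libraries, so their signs are not independent.

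The difference between ozone responses was tested directly as an interaction, and no member was called in either mutant, where 0.957% of all genes were called for wrky25 wrky33 (0.266% with a higher response and 0.692% with a lower one) and 0% for wrky75. No member reached an unadjusted p under 0.05. In wrky25 wrky33 the ATG18A response was smaller than in Col-0 by a log2 difference of -0.30 ± 0.16 (95% interval -0.63 to 0.03, adjusted p = 0.641). The estimates for ATG8H (0.71 ± 0.39, interval -0.11 to 1.52, adjusted p = 0.674), ATG8A (0.51 ± 0.32, interval -0.16 to 1.18, adjusted p = 0.764), ATG8D (0.40 ± 0.20, interval -0.02 to 0.83, adjusted p = 0.609) and NBR1 (0.28 ± 0.21, interval -0.17 to 0.73, adjusted p = 0.859) lay above 0. In wrky75 the estimates ran from -0.24 for ATG8I to 0.30 for NBR1, whose interval was -0.15 to 0.75. With 3 libraries in each mutant group, differences in response within these intervals remain compatible with these data in the fit without the block.

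**Figure D4:**
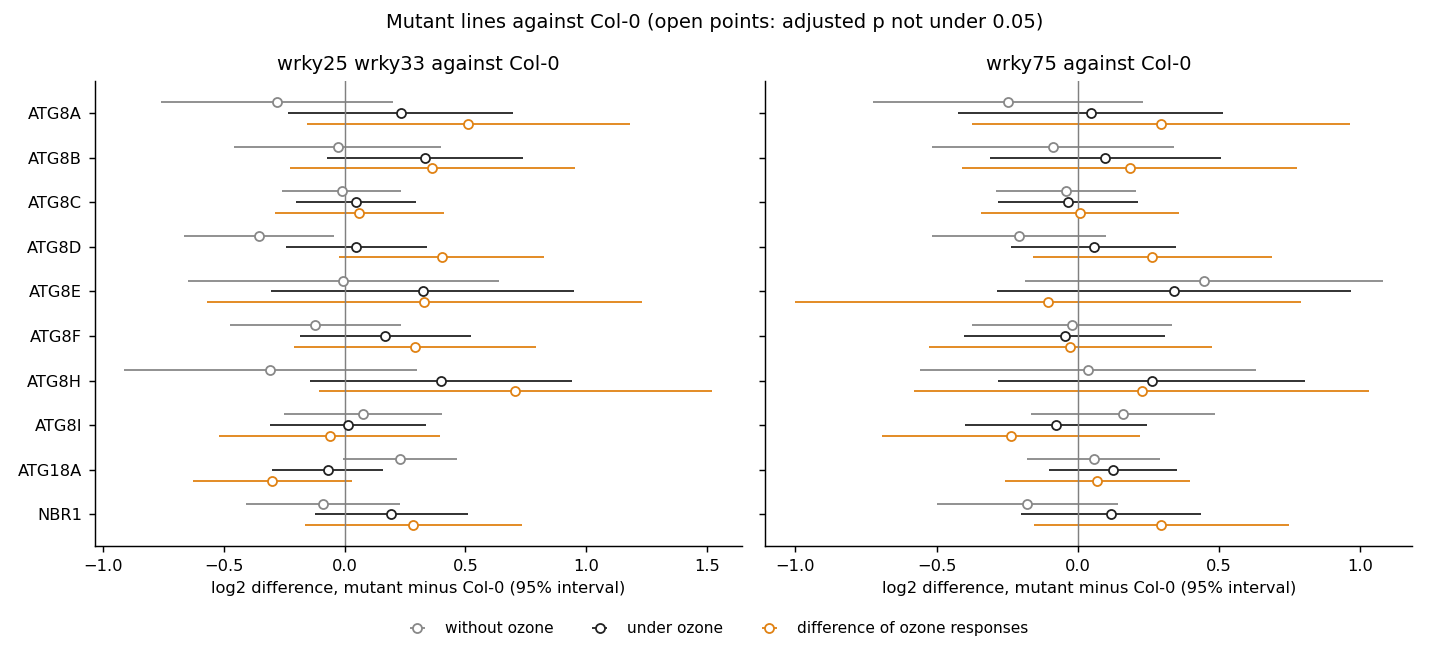
Log2 difference of wrky25 wrky33 (left) and wrky75 (right) from Col-0 for each gene without ozone, under ozone and between the ozone responses, with 95% intervals from the edgeR fit without the replicate block. Only the interval of ATG8D in wrky25 wrky33 without ozone leaves out 0, and no point passed an adjusted p of 0.05.

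Deviations of the libraries from their group means show which members varied together within groups. Over the 20 libraries the highest correlation was between ATG8A and ATG8B (Pearson r = 0.948), followed by ATG8A with NBR1 (0.916), ATG8B with ATG8H (0.914) and ATG18A with NBR1 (0.905). ATG8C and ATG8F varied together as well (0.882), although 1 fell and the other did not pass the test under ozone. ATG8D and ATG8E did not (-0.03). These values are descriptions over libraries that share scaling, and same-numbered libraries of several groups deviated together.

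The genes most like each leading member were found by the Pearson correlation of log2 CPM over the 20 libraries among 19944 other tested genes. For ATG18A they were SDH2-1 (r = 0.994), FIP1[V] (0.993) and RIN2 (0.993), and 2331 genes exceeded 0.95. ATG8H had AT1G30860 (0.99), AT2G21190 (0.989) and SAE2 (0.989), with 1245 genes over 0.95. For NBR1 they were VLN2 (0.99), RABE1c (0.977) and VCL1 (0.977), with 160 over 0.95. VLN2 followed NBR1 also in the deviations from group means (0.968), whereas for SDH2-1 and ATG18A that value was 0.758. The other pairs had values between 0.814 and 0.964 in the deviations.

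Other genes of the autophagy pathway were more often called higher than lower under ozone. Of 46 other autophagy genes listed, 44 were tested, and in Col-0 30 were higher, 4 lower and 10 not called, with a median log2 change of 0.49. The counts were 29 higher and 3 lower in wrky25 wrky33 (median 0.55) and 28 and 2 in wrky75 (median 0.41). Of all genes, 33.3% were called higher and 36.4% lower in Col-0, 31.1% and 33.9% in wrky25 wrky33 and 32% and 36.1% in wrky75. The counts by role below stand beside the same shares, and the list was written with earlier results of these data known. With upper-quartile scaling the counts of genes called higher were 22 in Col-0, 24 in wrky25 wrky33 and 21 in wrky75.

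Among receptors and adaptors, the group that includes NBR1 by role, all 8 tested genes were higher in each genotype. In Col-0 the locus AT4G34660, an SH3-domain protein, rose from 20.9 to 48.2 CPM (log2 change 1.20 ± 0.10, adjusted p = 5.76e-09) and AT1G20110 (FYVE1), a membrane-sorting protein, from 63.1 to 126 CPM (1.00 ± 0.10, adjusted p = 7.34e-08). ATI1, an ATG8-interacting protein, rose by 0.90 ± 0.13 and the locus AT5G06830 by 0.79 ± 0.14. RPN10 and DSK2 encode ubiquitin-binding proteins, which carry ubiquitinated proteins. The RPN10 transcript rose by 0.67 ± 0.13, and those of DSK2a and DSK2b by 0.61 ± 0.10 and 0.68 ± 0.11.

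The conjugation genes, whose products attach ATG8 to its lipid, were higher in 7 of 9 cases in Col-0 and lower in none. ATG7, the activating enzyme of the pathway, rose from 13.7 to 26.1 CPM (0.93 ± 0.12, adjusted p = 1.64e-06). ATG12A, ATG3 (the enzyme that transfers ATG8 to the lipid) and the locus AT5G50230 rose by 0.78 ± 0.14, 0.65 ± 0.11 and 0.63 ± 0.11. The 2 peptidases annotated to autophagy, AT3G59950 and AT2G44140, rose by 0.49 ± 0.10 and 0.38 ± 0.10. ATG5 (0.11 ± 0.12, adjusted p = 0.441) and ATG12B (0.10 ± 0.16, adjusted p = 0.613) did not pass.

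The module of ATG9, ATG2 and the other ATG18 genes, which supplies membrane to the growing vesicle, had 7 of 8 tested genes higher and 1 lower in Col-0. ATG18C rose by 1.07 ± 0.17, ATG2 by 0.94 ± 0.10, ATG9 by 0.84 ± 0.12 and ATG18F by 0.68 ± 0.12. Each of these estimates was below that of ATG18A, a difference between genes that was not tested, and ATG18G fell by 0.44 on the log2 scale (adjusted p = 0.00421). This module also held the 2 other autophagy genes called between a mutant and Col-0. Under ozone, ATG18F was higher in wrky25 wrky33 than in Col-0 by 0.57 ± 0.13 (adjusted p = 0.0101) and ATG18D by 0.50 ± 0.14 (adjusted p = 0.0485), and their interactions were not called. The calls depended on the fit: 1 gene was called with DESeq2 size factors or without a filter and 0 in a fit of the compared groups alone. The replicate block called 3 genes higher, ATG18F, ATG18D and ATG7 (0.40 ± 0.08, adjusted p = 0.00371), and ATG18C lower (-0.48 ± 0.15, adjusted p = 0.0431), and it called the ATG18F interaction (0.55 ± 0.14, adjusted p = 0.0454). Upper-quartile scaling called the same 3 genes higher.

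In the phosphatidylinositol 3-kinase complex, which makes the lipid that ATG18A binds, 5 of 6 genes were higher and 1 lower in each genotype. The locus AT1G77890 rose from 7.61 to 24.3 CPM in Col-0 (1.67 ± 0.15, adjusted p = 2.37e-08), close in size to ATG18A, and VPS34, the kinase itself, rose by 0.69 ± 0.10. AT2G32760 rose by 0.61 ± 0.11, and AT4G08540 fell by 0.36 (adjusted p = 0.0021). ATG6, a regulatory subunit, rose by 0.39 ± 0.11.

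The upstream kinase genes went in both directions or were not called. Of 8 ATG1 kinase complex genes in Col-0, ATG101 (0.72 ± 0.18) and AT3G53930 (0.68 ± 0.12) were higher, AT3G18770 (-0.66 ± 0.16) and AT1G49180 (-0.44 ± 0.13) lower, and 4 not called. Of 4 TOR and SnRK1 kinase genes, RAPTOR1B, a TOR partner, was higher (0.32 ± 0.09, adjusted p = 0.00471), and TOR (0.02 ± 0.11, adjusted p = 0.898), KIN10 (-0.12 ± 0.11, 0.358) and KIN11 (0.00 ± 0.11, 0.992) did not pass. The ninth ATG8 gene, ATG8G, averaged 4.96 CPM without and 4.82 CPM with ozone and did not pass (-0.05 ± 0.17, adjusted p = 0.826).

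**Figure D5:**
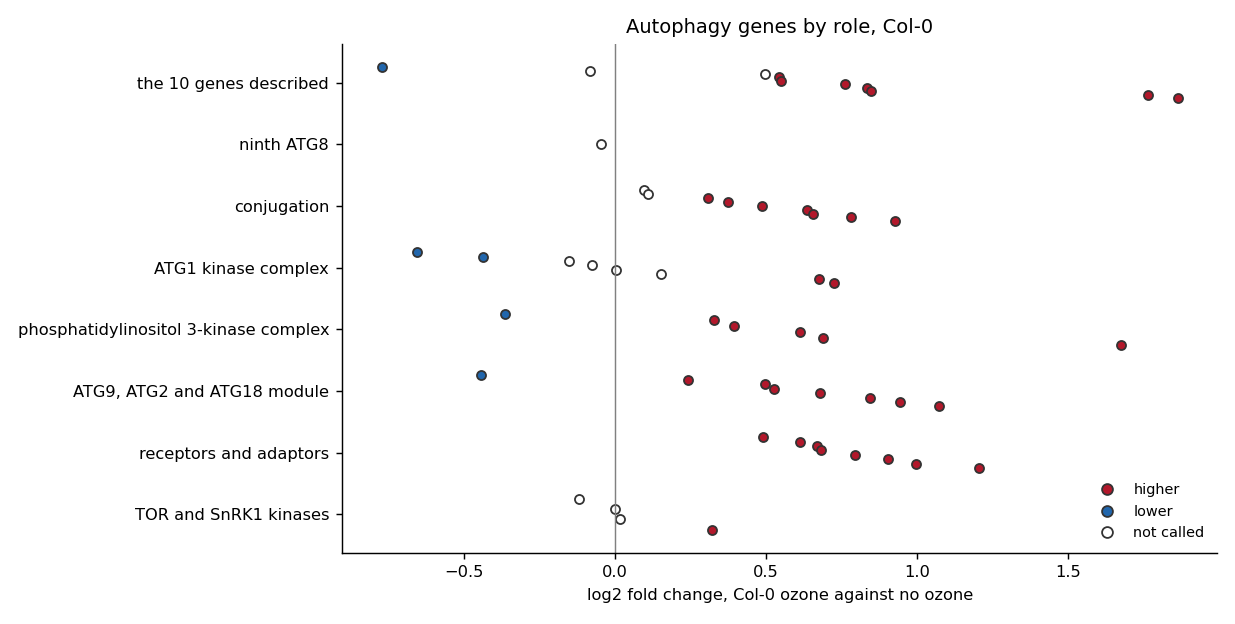
Log2 fold change under ozone in Col-0 for the 10 genes described and for 44 other autophagy genes by role, with red for genes called higher, blue for lower and open points for those that did not pass an adjusted p of 0.05. Receptors and adaptors lie wholly to the right of 0, whereas the ATG1 and TOR and SnRK1 kinase groups scatter around it.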

How the data were processed

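RNA was sequenced from 20 libraries of pooled Arabidopsis rosettes made with a kit that does not keep the strand. The authors deposited whole-number read counts per gene for 33602 genes in each library, with gene positions. FastQC, TopHat2, SAMtools and HTSeq, with the genome TAIR10, are named per the submitters' processing notes, without versions, roles or settings. Gene positions and sequences printed here come from the RefSeq annotation of TAIR10.1, in which 26712 of 26712 shared protein-coding genes lay on the same chromosome and strand as in the deposited count tables. In the reference, ATG8A and ATG8I are listed as APG8A and APG8H with those names as synonyms.

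Counts were scaled by TMM and tested in edgeR 4.0.16 (R 4.3.3, limma 3.58.1) by the quasi-likelihood test with 1 mean for each of the 6 groups over all 20 libraries. Genes passing filterByExpr (19954) entered, and p-values were adjusted by Benjamini-Hochberg over all of them, with calls at 0.05. The SE of a log2 fold change was its size divided by the square root of F. The common biological coefficient of variation was 17.21%. CPM values are counts per 1000000 reads of the TMM-scaled library, and levels per length divided them by the union of RefSeq exons. For some genes RefSeq reaches past the deposited gene span, so part of the length may hold no counted reads. ATG8I lies from 5273526 on chromosome 3 in RefSeq and from 5273895 in the deposited tables, whereas both spans are the same for ATG8C and ATG8H. The effect on levels per length was not tested. The steps were tested on simulated counts with independent libraries and few changed genes. That setting is unlike these data, so it does not check the scaling or the lack of a block here. Sequences were aligned with Biopython 1.88. Each library held 20486137 to 20771667 reads. For members with few counts, such as ATG8D with a mean of 110 counts in wrky25 wrky33 without ozone, counting error can be a sizeable part of the spread between libraries. The p-values cover counting error and the spread between libraries of a group, and no other source of error. Counts of replicates differed beyond sampling noise (chi-square per degree of freedom 6.47 to 69.0), so none was a duplicate.

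The 10 genes and the other lists were chosen with earlier results of these data known. The text names all 10 genes and, of the other autophagy genes, up to 4 called genes of each role with the largest change in Col-0, then others by role. Alternatives were DESeq2 size factors, upper-quartile factors, no filter, DESeq2 1.42.0, the replicate number as a block, fits of the compared groups alone, each library left out, Col-0 without replicate 4, and, added after seeing the data, no replicate 1. Same-numbered libraries were checked for shared deviations from group means (a correlation over 0.1 in every pair). This held for Col-0 without and with ozone (0.11 to 0.38), Col-0 and wrky25 wrky33 without ozone (0.18 to 0.47) and under ozone (0.31 to 0.58), and Col-0 and wrky75 under ozone (0.47 to 0.68). It did not hold within either mutant or between Col-0 and wrky75 without ozone (0.094 to 0.48).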

Additional observations from a re-analysis of the deposited data

Results flagged for a closer look

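One of 20 sets of 4 Col-0 libraries (10 genes, without and with ozone) held a library far from the others, and chance alone flags about 1 in 20. ATG8F in control replicate 4 measured 116.53 CPM, whereas the other 3 controls lay between 74.2 and 79.9 CPM. Without that library the Col-0 ozone change of ATG8F was -0.57 on the log2 scale (adjusted p = 0.000934), so the call did not depend on it. Replicate 4 was also the highest Col-0 control for ATG8A, ATG8B, ATG8C, ATG8D and ATG8H, and the lowest for ATG8I.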

How the results depend on the processing

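Under the alternatives to the Col-0 ozone response the 7 genes called higher and ATG8F called lower kept their calls. Upper-quartile factors added ATG8C, giving 2 members lower in Col-0, and gave 22 other autophagy genes higher and 7 lower in Col-0, 24 and 3 in wrky25 wrky33 and 21 and 7 in wrky75, against 30 and 4, 29 and 3, and 28 and 2. In wrky25 wrky33 the 1 member lower became 0 with DESeq2 size factors, in DESeq2 and without replicate 1 of every group, and the 3 other autophagy genes lower became 1 in each of these. In wrky75 ATG8I passed with DESeq2 size factors (adjusted p = 0.0374), in DESeq2 (0.037), with the replicate block (0.0217) and without replicate 4 of both Col-0 groups (0.0417). Other autophagy genes lower in wrky75 became 4 with the replicate block and 1 without replicate 1 of every group. The 2 other autophagy genes higher in wrky25 wrky33 than in Col-0 under ozone became 1 with DESeq2 size factors, 1 without a filter, 1 without replicate 4 of both Col-0 groups and 0 in a fit of the compared groups alone, and 3 with upper-quartile factors, while the replicate block gave 3 higher and 1 lower there and 1 higher for the wrky25 wrky33 interaction. The cause of these shifts was not tested. The block changed no other call of a member.

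Leaving out each library in turn gave 7 members higher and 1 lower in Col-0, 6 to 8 higher and 0 to 1 lower in wrky25 wrky33, and 6 higher and 1 lower in wrky75. Other autophagy genes ranged from 28 to 30 higher and 4 to 4 lower in Col-0, 28 to 30 and 1 to 3 in wrky25 wrky33, 25 to 26 and 2 to 5 in wrky75, and from 0 to 3 higher and 0 to 1 lower between wrky25 wrky33 and Col-0 under ozone, where leaving out ozone replicate 2 of wrky25 wrky33 gave 0 higher. No member was called in a mutant comparison or interaction under any alternative run.

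The sign of ATG8C, never called higher, turned positive at times. Leaving out each library gave values from -0.146 to 0.0563 in Col-0, -0.112 to 0.0744 in wrky25 wrky33 and -0.184 to -0.00469 in wrky75. It turned positive in Col-0 without replicate 4 of both Col-0 groups (0.0177) and without control replicate 4 (0.0563). In wrky25 wrky33 it did so with DESeq2 size factors (0.0565), without a filter (0.0215), without replicate 4 of both Col-0 groups (0.0216), in DESeq2 (0.0573), in a fit of the compared groups (0.0188), without replicate 1 of every group (0.0737) and without ozone replicate 1 (0.0744), and in wrky75 with DESeq2 size factors (0.0322), in DESeq2 (0.0329) and without replicate 1 of every group (0.0128). With the longest annotated transcript as length, the summed ATG8 level without ozone was 198 CPM per kb in Col-0, 183 in wrky25 wrky33 and 201 in wrky75, and ATG8F supplied 34.7% of it in Col-0 and 16.0% under ozone.

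All 10 genes passed the filter on low counts. With 3 or 4 libraries per group, differences within the printed intervals remain compatible with these data in the fit without the block.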

Other observations

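The ozone libraries of replicate 2 held the most ATG8H transcript in each genotype, at 35.3 CPM in Col-0, 49.7 CPM in wrky25 wrky33 and 42.1 CPM in wrky75, and those of replicate 1 the least, at 16.9, 24.6 and 21.6 CPM. ATG8E showed the same order between these libraries in both mutants, with 48.1 CPM in replicate 2 against 20.9 CPM in replicate 1 of wrky25 wrky33, and 47.4 against 19.3 CPM in wrky75. The genes ATG18E and TSPO, a stress-induced membrane receptor, were below the filter and averaged at most 0.0495 and 0.0995 CPM. SAG12, a marker of late senescence, stood at 4.96 CPM in Col-0 ozone replicate 4 and at 2.38 CPM in wrky75 ozone replicate 2, and at 1.05 CPM or less in each other library.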
